A study of Mus musculus with 9 samples.

Results

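The genes described here are 10 genes of innate inflammation: the cytokine genes Tnf, Il6 and Il1b, the interleukin-1 receptor antagonist Il1rn, the receptor Il1r1, the lipopolysaccharide receptor genes Tlr4 and Cd14, the inflammasome genes Nlrp3 and Casp1, and the NF-κB inhibitor gene Nfkbia. They were chosen by symbol in the array's annotation table, where each had a single probe set of its own, and they are 10 of the 22180 genes measured. The study asked whether an extract of ginseng flower buds limits fatty liver together with liver inflammation and insulin resistance. Liver RNA was measured on whole-transcript GeneChip arrays, microarrays with probes along the whole transcript, with 3 arrays in each of 3 groups. All mice were C57BL/6 (entered as C56BL/6J in the strain field), were 5 weeks old at the start and gave their livers after a night without food. The regular-diet (RD) and high-fat diet (HFD) groups received vehicle, and the extract (GFB) group ate the high-fat diet and received ginseng flower bud extract by mouth at 500 mg/kg, daily for 12 weeks. The labels do not give the sex of the mice. They also do not say whether the arrays come from different animals, so a p-value here covers only the spread among these samples, which may be technical.

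Lipopolysaccharide from gut bacteria reaches the liver in portal blood, where the binding protein LBP passes it to CD14 and to a complex of the receptor TLR4 with its partner MD-2 (gene Ly96). Signalling through the adaptor MyD88 frees NF-κB from its inhibitor IκBα (gene Nfkbia), and NF-κB drives the genes of TNF, interleukin-6, pro-interleukin-1β and of IκBα itself. The NLRP3 inflammasome activates caspase-1, which cuts pro-interleukin-1β to the active cytokine, and the antagonist IL-1RA competes with it for the receptor IL1R1. In liver these genes are mostly those of Kupffer cells, the resident macrophages, and of recruited monocytes, while hepatocytes are responding cells. An array of whole liver gives the mean over all cells, so fewer cells of a type and less RNA per cell cannot be told apart.

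For 4 of the members that NF-κB is known to control, Tnf, Il6, Nfkbia and Nlrp3, the 250 bases before a transcript start are shown. They come from RefSeq annotation of the mouse build GRCm38.p6, which held 12 start sites for 8 of the 10 members and none for Tlr4 and Cd14. Capitals mark matches to the κB-like letters GGANTTTCC or to TATAAA, searched on both strands, and no matches overlapped. Positions count back from -1, the last base before the start. The Nfkbia window (chr12:55492648-55492897, minus strand) held 2 κB-like matches that begin at -178 and -29. The Il6 window (chr5:30012864-30013113, plus strand) held 1 at -43, and the window of 1 of the 2 Nlrp3 starts (chr11:59541319-59541568, plus strand) held 1 at -122. The Tnf window (chr17:35202008-35202257, minus strand) held TATAAA at -29 and no κB-like match to these letters.
Nfkbia: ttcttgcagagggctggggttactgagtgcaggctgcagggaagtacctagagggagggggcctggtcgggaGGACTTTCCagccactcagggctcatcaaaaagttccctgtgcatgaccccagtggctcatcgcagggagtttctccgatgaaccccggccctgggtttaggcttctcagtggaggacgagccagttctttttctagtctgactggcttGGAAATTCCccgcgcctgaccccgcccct
Il6: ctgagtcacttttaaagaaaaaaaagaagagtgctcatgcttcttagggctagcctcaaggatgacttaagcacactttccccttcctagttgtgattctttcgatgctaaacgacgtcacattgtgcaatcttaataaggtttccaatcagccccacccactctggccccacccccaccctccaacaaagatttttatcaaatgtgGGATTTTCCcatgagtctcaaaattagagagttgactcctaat
Nlrp3: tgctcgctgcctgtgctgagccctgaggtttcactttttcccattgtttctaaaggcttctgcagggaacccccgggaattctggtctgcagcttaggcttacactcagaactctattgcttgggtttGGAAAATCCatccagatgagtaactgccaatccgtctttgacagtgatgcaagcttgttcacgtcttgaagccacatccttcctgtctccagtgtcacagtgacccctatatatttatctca
Tnf: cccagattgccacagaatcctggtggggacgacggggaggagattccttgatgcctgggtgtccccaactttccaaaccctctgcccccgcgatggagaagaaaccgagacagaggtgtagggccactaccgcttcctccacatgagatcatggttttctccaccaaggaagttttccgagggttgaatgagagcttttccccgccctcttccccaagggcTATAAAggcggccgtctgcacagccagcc

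Of all 32851 promoter windows in that table, 1.07% held the κB-like letters and 12.4% held TATAAA. Among the 12 windows of the members, 3 held the κB-like letters and 2 held TATAAA, the latter being Tnf and Il1b. All 3 windows with the κB-like letters are printed above. The window of Il1b, a gene that NF-κB also drives, held no κB-like match and is not printed. A match is a description of the letters and not of binding.

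None of the 10 members passed the test in any comparison. Their differences lay between -0.17 and 0.24 on the log2 scale for the high-fat against the regular diet, and between -0.28 and 0.31 for the extract against the high-fat diet. In limma's test over all genes, 0 of 10 members passed at an adjusted p under 0.05 for the high-fat against the regular diet, where 1.34% of all genes passed. The counts were 0 of 10 for the extract against the high-fat diet, where 0.00451% of all genes passed, and 0 of 10 for the extract against the regular diet, where 0.442% passed. At an unadjusted p under 0.05, 1 of 10 members passed in each of these comparisons, against 13.3%, 5.98% and 12.1% of all genes. The single member was Tnf, Cd14 and Il1b in that order. A moderated F test across the 3 groups passed 0 of 10 members, adjusted or not, with adjusted p from 0.445 to 0.964, and 0.78% of all genes adjusted or 12.3% unadjusted. For a single gene, the smallest p that an exact permutation test allows at this size (3 against 3) is 0.1.

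The arrays carried a liver profile. The median log2 value of an array was 4.34 to 4.38, and pairs of arrays correlated across genes at 0.987 to 0.994. Normalization equalises the distributions of arrays, so the medians do not measure how alike the samples were. Of 8 hepatocyte markers, 7 had means of 10.1 to 13.5 and Ass1 a mean of 5.52, with list means of 10.99 to 11.31 on the single arrays. To judge which members are near background, the median of all gene means, 4.74, served as a mark. A lower mark of 4.39 was the 95th percentile of 1390 olfactory and vomeronasal receptor genes, which liver is not known to use. Tnf, Il6, Nlrp3, Casp1 and Tlr4 lay under 4.74 on all 9 arrays. Casp1 lay above 4.39 on all 9 and Tlr4 on 6 of 9, while Tnf, Il6 and Nlrp3 lay under 4.39 on all 9. For Tnf, Il6 and Nlrp3, a difference or its absence is not told from background. Il1rn, Il1r1 and Nfkbia lay above 4.74 on all 9 arrays, and Il1b and Cd14 on 6 of 9.

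**Figure D1:**
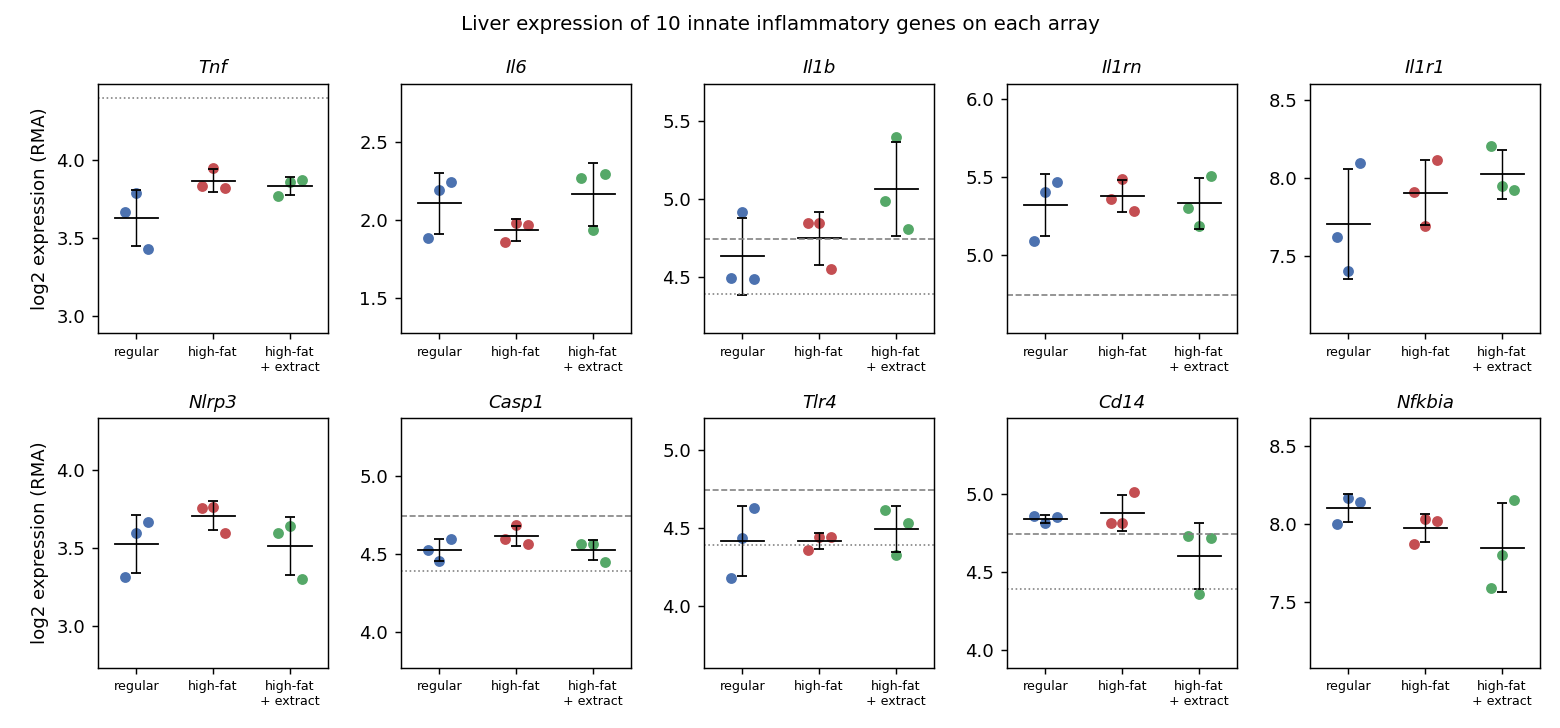
Log2 expression of each member on the 9 arrays, in groups of 3 (regular diet, high-fat diet, high-fat diet with extract). Points are arrays, the bar is the mean and the whiskers are the SD. The dashed line is the median gene mean (4.74) and the dotted line the olfactory receptor mark (4.39) where they fall in the panel, and every panel spans the same height. Only Tnf (high-fat above regular diet) and Cd14 (extract below both other groups) have groups that do not overlap. Groups that do not overlap make up 15.8% of all genes for the high-fat against the regular diet. They make up 9.69% and 14.6% for the extract against the high-fat and the regular diet.

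Among the ligands, Tnf, the gene of the macrophage cytokine TNF, was listed at 3.67, 3.78 and 3.43 on the regular diet, at 3.83, 3.95 and 3.82 on the high-fat diet and at 3.77, 3.86 and 3.87 with extract. The 3 high-fat diet arrays lay above the 3 regular-diet arrays, and the extract arrays overlapped both. Between these diets, 15.8% of all genes had groups that did not overlap, against 10% of the members. The diet difference was 0.24 ± 0.10 (log2 fold change ± SE, adjusted p = 0.325), and the extract difference from the high-fat diet was -0.04 ± 0.10 (adjusted p = 0.971). The group order was regular diet (3.63 ± 0.18, SD, n = 3), extract (3.83 ± 0.06) and high-fat diet (3.86 ± 0.07). All 9 values lay under the olfactory receptor mark.

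Il6, the gene of a cytokine that drives the hepatic acute-phase response, had the dimmest signal for its probe set, at 1.86 to 2.29 over the 9 arrays. Its means were 1.93 ± 0.07 on the high-fat diet, 2.11 ± 0.19 on the regular diet and 2.16 ± 0.20 with extract. The groups overlapped, with differences of -0.17 ± 0.12 for the diet (adjusted p = 0.615) and 0.23 ± 0.12 for the extract on it (adjusted p = 0.852).

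Il1b, the gene of pro-interleukin-1β, read 4.50, 4.92 and 4.49 on the regular diet. It read 4.85, 4.85 and 4.55 on the high-fat diet and 4.99, 5.40 and 4.81 with extract. From low to high, the means were ordered regular diet, high-fat diet and extract, but neighbours in that order overlapped, as did the outer groups through regular-diet replicate 2. The extract differed from the regular diet by 0.43 ± 0.17 (adjusted p = 0.358) and from the high-fat diet by 0.31 ± 0.17 (adjusted p = 0.852). These 2 values have 95% confidence intervals of 0.05 to 0.82 and -0.07 to 0.70. Without extract replicate 2, the array with the highest value, they were 0.27 and 0.15.

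Il1rn, which encodes the secreted antagonist of the interleukin-1 receptor, was the steadiest of the ligand genes between groups. Its values were 5.09, 5.40 and 5.47 on the regular diet, 5.36, 5.49 and 5.28 on the high-fat diet and 5.30, 5.19 and 5.51 with extract. All groups overlapped, and the 3 means lay between 5.32 and 5.38. The diet difference was 0.06 ± 0.12 and the extract difference -0.04 ± 0.12 (adjusted p = 0.894 and 0.970).

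Il1r1, the signalling receptor for interleukin-1, was bright on every array. It read 7.62, 7.41 and 8.09 on the regular diet, 7.91, 7.69 and 8.12 on the high-fat diet and 8.21, 7.95 and 7.92 with extract. The high-fat diet and extract arrays overlapped each other, and both overlapped the regular-diet group through its replicate 3, which lay above the other 2 arrays of that group. The diet difference was 0.20 ± 0.18 (adjusted p = 0.696), and it was 0.39 without that array and 0.05 without regular-diet replicate 2. With extract the difference from the regular diet was 0.32 ± 0.18 (adjusted p = 0.528), and 0.51 and 0.17 without those same arrays. In this gene the spread within the regular-diet group (SD 0.35) exceeded each of the 3 differences between groups.

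Among the receptor genes for lipopolysaccharide, Tlr4 had nearly equal means on both diets. Its values were 4.18, 4.44 and 4.63 on the regular diet, 4.36, 4.44 and 4.44 on the high-fat diet and 4.61, 4.33 and 4.53 with extract. The high-fat diet arrays fell inside the range of the regular-diet arrays, and the diet difference was -0.00 ± 0.12 with a 95% confidence interval of -0.27 to 0.27 (adjusted p = 1.00). The extract difference from the high-fat diet was 0.08 ± 0.12 (adjusted p = 0.943).

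Cd14, the co-receptor that hands lipopolysaccharide to TLR4, read 4.86, 4.81 and 4.85 on the regular diet and 4.81, 4.81 and 5.01 on the high-fat diet. With extract it read 4.73, 4.36 and 4.72, below all 6 other arrays. The difference of the extract from the high-fat diet was -0.28 ± 0.11 (adjusted p = 0.802), or -0.15 without extract replicate 2. From the regular diet it was -0.24 ± 0.11 (adjusted p = 0.433), or -0.12 without that array. Groups that do not overlap were common: they made up 9.69% of all genes for the extract against the high-fat diet and 14.6% for the extract against the regular diet. For Cd14 the extract arrays also lay under the 4.74 mark. The deposited value was exactly equal on 3 arrays (regular-diet replicate 2 and high-fat diet replicates 1 and 2). Such equal values occur in 56.9% of all genes and in 4 of the 10 members (Nlrp3, Casp1, Tlr4 and Cd14), and their effect on the measured spread was not tested.

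The gene of the partner of TLR4 did pass. Ly96, which encodes MD-2, the protein of the complex that binds lipopolysaccharide, read 5.94, 5.63 and 5.82 on the regular diet, 6.73, 6.87 and 6.59 on the high-fat diet and 7.21, 7.16 and 6.83 with extract. All 6 arrays of high-fat-fed mice lay above the regular-diet arrays. Ly96 rose 1.91-fold on the high-fat diet (0.93 ± 0.13, adjusted p = 0.0139) and was 2.41-fold above the regular diet with extract (1.27 ± 0.13, adjusted p = 0.00783). The extract and high-fat diet arrays overlapped (0.34 ± 0.13, adjusted p = 0.790). The diet call was lost without regular-diet replicate 2 (0.85, adjusted p = 0.0563) and with only the 6 arrays compared (adjusted p = 0.0606). The call with extract was lost without extract replicate 1 (1.20, adjusted p = 0.0587) or extract replicate 2 (1.22, adjusted p = 0.0608). Lbp, the binding protein gene, differed by 0.35 ± 0.18 on the high-fat diet (adjusted p = 0.448), and Myd88, the adaptor gene, by 0.41 ± 0.15 (adjusted p = 0.272). Neither passed, and their groups overlapped.

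**Figure D2:**
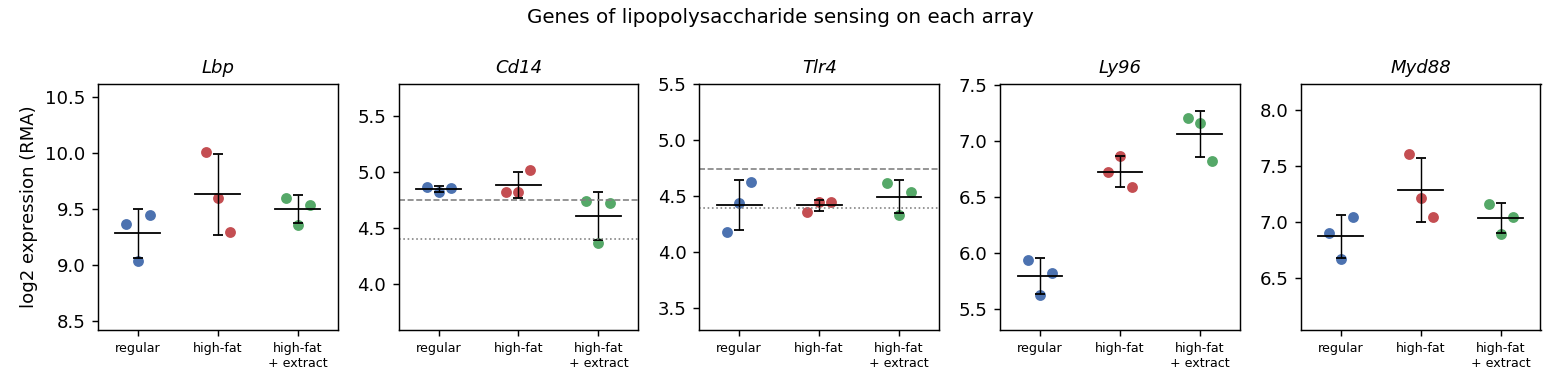
Log2 expression of Lbp, Cd14, Tlr4, Ly96 and Myd88 on the 9 arrays, each panel spanning the same height, with means (bars), SD (whiskers) and the background marks of 4.74 (dashed) and 4.39 (dotted). Ly96 is higher on all 6 arrays of high-fat-fed mice, between 6.59 and 7.21 against 5.63 to 5.94 on the regular diet. The Tlr4 groups overlap, with all 9 values under the dashed line, near background.

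The inflammasome genes among the members did not pass. Nlrp3, the sensor gene, read 3.31, 3.60 and 3.67 on the regular diet, 3.76, 3.76 and 3.60 on the high-fat diet and 3.60, 3.64 and 3.30 with extract. The groups overlapped, with 0.18 ± 0.12 for the diet (adjusted p = 0.589) and -0.19 ± 0.12 for the extract on it (adjusted p = 0.863), all at signal under the olfactory receptor mark. Casp1, the protease gene, had the narrowest spread of the members, from 4.45 to 4.69 over the 9 arrays. Its means were 4.53 ± 0.07 on the regular diet, 4.62 ± 0.06 on the high-fat diet and 4.53 ± 0.07 with extract. The differences were 0.09 ± 0.07 and -0.09 ± 0.07 (adjusted p = 0.655 and 0.884), and the groups overlapped.

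In the same list, 2 other NLR genes passed in the diet comparison. Nlrp6, an NLR gene studied mainly in intestinal epithelium, read 7.58, 7.86 and 7.81 on the regular diet, 8.43, 8.21 and 8.28 on the high-fat diet and 8.28, 8.26 and 8.48 with extract. It rose by 0.56 ± 0.10 on the high-fat diet (adjusted p = 0.0386), and the extract arrays lay as far above the regular diet without passing (0.59 ± 0.10, adjusted p = 0.0542). Nlrp12, an NLR gene described as a brake on NF-κB signalling, read 7.30, 7.28 and 7.63 on the regular diet, 6.69, 6.53 and 6.59 on the high-fat diet and 7.01, 6.59 and 7.15 with extract. It fell by 0.80 on the high-fat diet (SE 0.15, adjusted p = 0.0399), and its extract arrays lay below the regular-diet arrays without passing (-0.49 ± 0.15, adjusted p = 0.237). Both diet calls sat close to the threshold. The Nlrp6 call was lost when any 1 array other than extract replicate 3 was left out (0.47 to 0.61 over the arrays left out, adjusted p from 0.0614 to 0.113 where lost). The Nlrp12 call was lost without any 1 of 7 arrays, these being all regular-diet and high-fat diet arrays and extract replicate 1 (-0.86 to -0.68, adjusted p from 0.0514 to 0.132 where lost).

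Nfkbia, the inhibitor gene whose window with 2 κB-like matches is printed above, was bright on every array and did not pass. It read 8.0, 8.17 and 8.14 on the regular diet, 7.87, 8.03 and 8.02 on the high-fat diet and 7.59, 7.80 and 8.16 with extract. Its order was regular diet, high-fat diet and extract, with overlap between neighbours and a wider spread with extract (SD 0.29, against 0.09 in each other group). The differences were -0.13 ± 0.13 for the diet (adjusted p = 0.747) and -0.12 ± 0.13 for the extract on it (adjusted p = 0.920). Against the regular diet the extract value was -0.25 ± 0.13 (adjusted p = 0.499), and it was -0.12 without extract replicate 1 and -0.41 without extract replicate 3.

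The confidence intervals bound how large a difference in array signal could have been missed. For all 10 members in each of the 3 comparisons the 95% interval lay within a 2-fold change, and for 9, 9 and 8 of 10 within a 1.5-fold change. The highest upper bounds were 1.51-fold for Il1r1 on the high-fat diet, and for Il1b 1.62-fold with extract against the high-fat diet and 1.76-fold against the regular diet. The lowest bounds were a 1.37-fold fall of Il6, a 1.44-fold fall of Cd14 and a 1.47-fold fall of Nfkbia in the same order. For the members near background these bounds hold for the array signal and not for the transcript, because background compresses differences. The comparisons share arrays, so their values are not independent of each other.

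**Figure D3:**
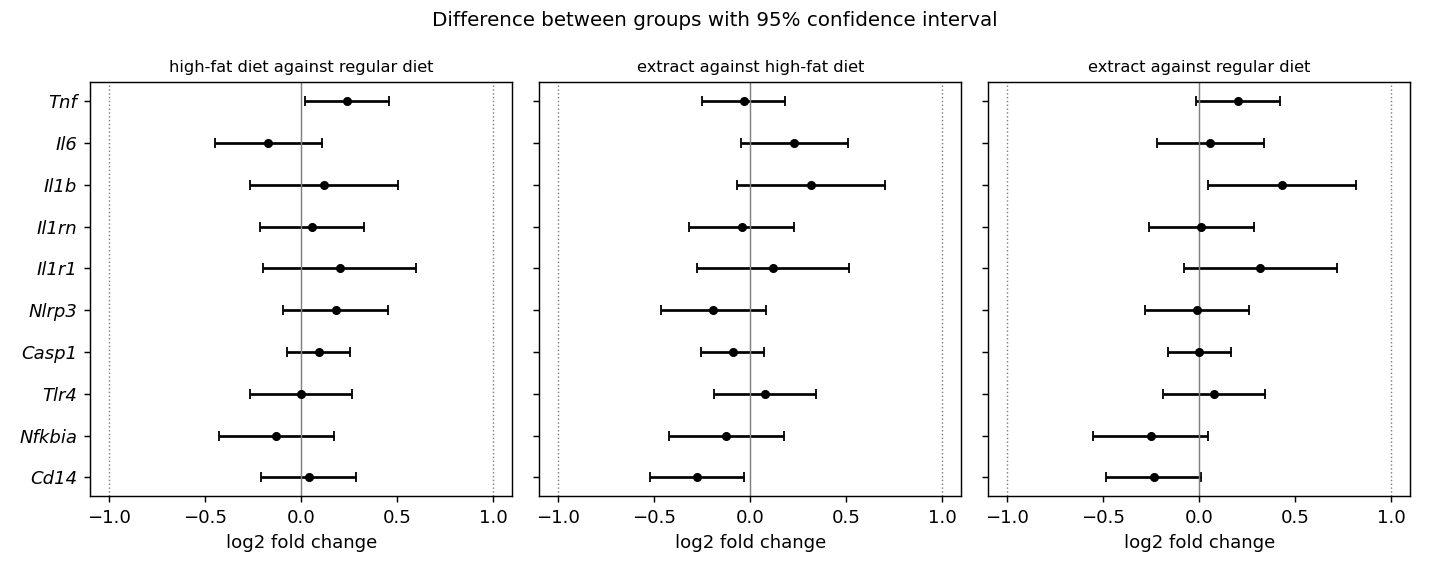
Log2 fold change of each member with its 95% confidence interval from limma in the 3 comparisons. Dotted lines mark a 2-fold change in either direction. All 30 intervals stay inside those lines, and those of Tnf on the high-fat diet, Cd14 with extract against the high-fat diet and Il1b with extract against the regular diet leave 0 outside before adjustment.

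The surrounding pathways were described with 6 lists of interleukin-1, inflammasome, TLR4, NF-κB, TNF and interleukin-6 genes, in which 75 of 80 genes besides the members were measured. On the high-fat diet 2 of these 75 rose and 1 fell (4% against 1.34% of all genes), namely Ly96, Nlrp6 and Nlrp12, and 48 were higher. With extract against the high-fat diet 0 of 75 passed in limma's test, and 46 were lower. With extract against the regular diet, Ly96 alone passed of the 75, and 46 were higher. At an unadjusted p under 0.05 the counts were 9, 3 and 11 of 75, against the 13.3%, 5.98% and 12.1% of all genes given above. Of all genes, 50%, 49.4% and 50.3% were higher in these comparisons.

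By list, the members included, the 11 measured interleukin-1 family genes had a median of 0.02 on the high-fat diet and 0.08 with extract against it, beside 0.00 for all genes in each. Il18, the gene of a cytokine that caspase-1 also matures, had the smallest p there, with 0.38 ± 0.16 on the high-fat diet (adjusted p = 0.337) and 0.47 ± 0.16 with extract against the regular diet (adjusted p = 0.285). The 20 TLR4 genes had medians of 0.16 and -0.09, with 14 higher on the high-fat diet and 14 lower with extract against it. The 16 NF-κB genes had medians of 0.08 and -0.08, with 12 higher on the high-fat diet and 14 lower with extract against it, and none of the 16 passed. Nearest to passing was Ikbkb, the gene of the kinase that marks IκBα for removal, with 0.43 ± 0.10 on the high-fat diet (adjusted p = 0.0744) and no overlap between the groups. The 11 TNF genes had medians of 0.03 and -0.02, and Casp8, the gene of the death receptor protease, stood at 0.47 ± 0.17 (adjusted p = 0.261). The 12 interleukin-6 receptor genes had medians of 0.00 and 0.07, and Lifr, the leukaemia inhibitory factor receptor gene, stood at 0.81 ± 0.24 with extract against the regular diet (adjusted p = 0.216). The 15 inflammasome genes had medians of 0.02 and -0.02. Both comparisons use the high-fat diet arrays, with opposite sign, so their medians are not independent. With extract against the regular diet, the medians were 0.10 for the interleukin-1, 0.014 for the TLR4 and 0.005 for the NF-κB genes. They were 0.07 for the TNF, 0.10 for the interleukin-6 and 0.002 for the inflammasome genes. Of the TLR4 genes 11 were higher and 9 lower there, and of the NF-κB genes 8 and 8.

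The other genes with the smallest p in each list did not pass either. Groups without overlap made up 15.8% of all genes on the high-fat diet, and 9.69% and 14.6% with extract against the high-fat and regular diets. On the high-fat diet, Nfkbie, another inhibitor gene of NF-κB, lay at 0.24 ± 0.10 above and Tradd, the adaptor gene of the TNF receptor, at -0.19 ± 0.07 below the regular diet, each without overlap (adjusted p = 0.328 and 0.271). Il18bp, the gene of the interleukin-18 binding protein, and Osmr, the oncostatin M receptor gene, stood at 0.22 and 0.16 with overlap. With extract against the high-fat diet, Tlr6, a receptor gene for bacterial lipopeptides, Nfkbiz, an atypical IκB gene, and Fadd, a death receptor adaptor gene, lay below without overlap at -0.26 ± 0.10, -0.26 ± 0.10 and -0.18 ± 0.09 (adjusted p = 0.785, 0.802 and 0.848). Nfkbid stood at -0.22, Cflar at 0.10, Il6ra at 0.26 and Il1r2, the decoy receptor gene for interleukin-1, at 0.14, all with overlap. With extract against the regular diet, Tirap, an adaptor gene of TLR4, and Il6ra, the interleukin-6 receptor gene, lay above at 0.33 ± 0.12 and 0.43 ± 0.16 without overlap (adjusted p = 0.316 and 0.325). Cyld, a deubiquitinase gene, and Tradd lay below at -0.19 ± 0.08 and -0.18 ± 0.07, again without overlap (adjusted p = 0.405 and 0.364).

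**Figure D4:**
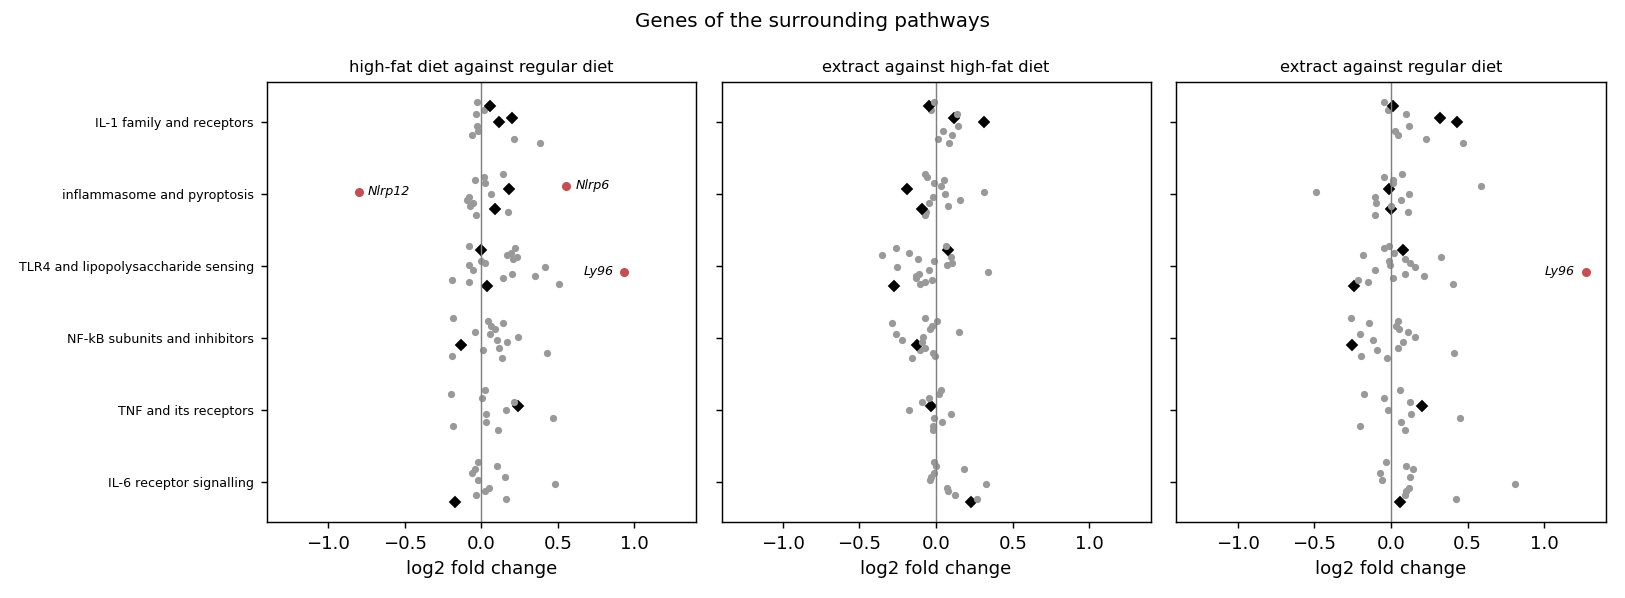
Log2 fold change of each measured gene of the 6 lists in the 3 comparisons. Black diamonds are the members, grey points the other genes that did not pass and red points those with an adjusted p under 0.05. Ly96, Nlrp6 and Nlrp12 are red on the high-fat diet, Ly96 alone with extract against the regular diet, and no point is red with extract against the high-fat diet.

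Markers of liver cell types were read beside the members. Of 11 Kupffer cell markers, all above 4.74, none passed in any comparison. Their list mean on single arrays ran from 6.60 to 7.19 on the regular diet, 6.81 to 7.09 on the high-fat diet and 6.59 to 7.15 with extract. Of 8 measured markers of recruited monocytes and macrophages, Cd9, a tetraspanin gene, fell on the high-fat diet (-0.74 ± 0.10, adjusted p = 0.0145) and was as low with extract against the regular diet (-0.79 ± 0.10, adjusted p = 0.0206). The other markers did not pass: 6 of the 8 were higher on the high-fat diet (median of all 8, 0.14), with Ly6c2 at 0.79 ± 0.28, Gpnmb at 0.61 ± 0.18 and Itgax at 0.53 ± 0.13 and no overlap between the groups (adjusted p = 0.254, 0.162 and 0.0884). In that comparison 15.8% of all genes had groups without overlap. Lyz2 (0.20), Ccr2 (0.08), Trem2 (0.06) and Itgam (-0.01) had groups that overlapped. The list mean of the 8 markers was 4.85 to 5.05 on the regular diet, 5.05 to 5.24 on the high-fat diet and 4.75 to 4.86 with extract, and all 8 were lower with extract than on the high-fat diet, with none passing. Of these 8, 5 had a mean under 4.74 over all arrays. They were Ly6c2 (4.34), Itgax (4.01), Gpnmb (4.50), Itgam (4.15) and the monocyte receptor gene Ccr2 (3.44). All of these but Gpnmb also had means under the olfactory receptor mark. The differences of Ly6c2, Gpnmb and Itgax thus come from dim genes, although Ly6c2 and Gpnmb had high-fat diet means of 4.89 and 4.98. This list was lower with extract, as Cd14 was, and its part in the Cd14 values was not tested. Of 9 neutrophil markers, 8 had a mean under 4.74, S100a8 and Ly6g among them, and none passed. The lists of 7 endothelial and 8 lymphocyte markers had no gene that passed. Of the endothelial markers, 5 were lower and 2 higher on the high-fat diet. Kdr (-0.47 ± 0.11, adjusted p = 0.0744) and Clec4g (-0.40 ± 0.17, adjusted p = 0.355) lay below without overlap, and Lyve1 stood at 0.52 with overlap. With extract Kdr lay above the high-fat diet without overlap (0.42 ± 0.11, adjusted p = 0.591). Col1a1 and Col3a1 of 7 stellate cell markers rose on the high-fat diet (0.85 ± 0.12 and 1.14 ± 0.14, adjusted p = 0.0152 and 0.0115), while Lrat and Reln stood at -0.15 and -0.14 with overlap. With extract against the high-fat diet no stellate cell marker passed, although Col1a1 and Col3a1 lay below without overlap (-1.05 ± 0.12 and -1.15 ± 0.14, adjusted p = 0.0851 and 0.0975) and Lrat above (0.57 ± 0.12, adjusted p = 0.427). Among the 8 hepatocyte markers, only Cps1, which encodes a urea cycle enzyme, passed on the high-fat diet, where it fell (-0.66 ± 0.10, adjusted p = 0.0224). Of the 8, 4 were higher and 4 lower on that diet (median -0.09). The 4 higher ran from Alb at 0.01 to Ttr at 0.14, all with overlap. The 4 lower, Cps1, Ass1 (-0.75), Tat (-0.47) and Hnf4a (-0.19), lay below without overlap, as 15.8% of all genes had groups without overlap. The hepatocyte list mean was 11.21 to 11.30 on the regular diet, 10.99 to 11.13 on the high-fat diet and 11.17 to 11.31 with extract.

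For the 5 members with a mean above 4.74, the genes with the most similar profile over the 9 arrays were listed by Pearson's r, as a description without a test. They were Gramd3 (0.961), Pnma1 (0.956) and Cxcl3 (0.925), a neutrophil-attracting chemokine gene, for Il1b. For Il1rn they were Krt33b, Tmem156 and Pilrb2 (0.890 to 0.910), and for Il1r1 Dll3, Zfp691 and Zfp961 (0.909 to 0.919). For Nfkbia they were Dtd2, Ywhag and Nsmce1 (0.922 to 0.953), and for Cd14 Mab21l2, Shh and Shank1 (0.955 to 0.985). The 3 genes most similar to Cd14 had means of 3.64 to 4.55 and those most similar to Il1rn of 3.07 to 4.37, all under the 4.74 mark. Pnma1 (4.10), Cxcl3 (2.17) and Dll3 (3.19) also had means under the lower mark of 4.39, so their profiles are not told from background. The profiles share the same 9 arrays and their normalization.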

How the data were processed

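The deposited values are log2 expression, 1 per probe set. For these the authors used RMA (robust multi-array averaging) from oligo, an R package, per the submitters' processing notes. Versions and a genome build are not given in the sources used here. RMA subtracts background, equalises array distributions and summarises probes, so a shift shared by most genes is removed and dim genes keep a value near background. Nothing was transformed further, and no value was missing. Of 41345 probe sets, 23521 had 1 gene symbol, 1814 several and 16010 none. The brightest single-symbol probe set stood for each of 22180 genes. Depth has no meaning for arrays, whose number limits the precision.

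With limma 3.58.1 in R 4.3.3, a model with 1 mean per group was fitted to the 9 arrays together (6 residual and 3.28 prior degrees of freedom). P-values were two-sided and adjusted by Benjamini and Hochberg's method over the 22180 genes, a gene was called under 0.05, and the procedure was tested on simulated data. In 5 simulations of the diet comparison, each with 200 changed genes, log2 changes of 0.5, 1 and 2 were recovered in 47.6%, 88.6% and 99.6% of cases. Of the calls, 6.24% were false. Changes as small as those of the members were not simulated. Members and lists were chosen with earlier results of these data known. The 10 members were named in every comparison, with every called gene of the 6 pathway lists, the 2 with the smallest p in each list and comparison, and the 3 genes most correlated with each member above the median gene mean. Of the lists, Il1rl1, Irak4, Nfkb1, Chuk, Ripk1 and Spp1 were not analysed here. The replicate numbers were checked for pairing: deviations of same-numbered arrays from their group means correlated at -0.05 to 0.17, over 0.1 in 1 of 9 pairs, so they were treated as names. The alternatives were other variance moderation, brighter genes only, the mean of probe sets, 2 further normalizations, the replicate block, a fit without the group not compared, and dropping single arrays. Scanner files and scan dates were not used here.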

Additional observations from a re-analysis of the deposited data

How the results depend on the processing

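No member passed in any comparison under any alternative run, which were 16 for Il1b, Il1rn, Il1r1, Nfkbia and Cd14 and 15 for the other 5 members, since the brighter genes leave those out. The smallest adjusted p of a member ran from 0.243 to 0.562 for the high-fat against the regular diet, from 0.580 to 0.949 for the extract against the high-fat diet, and from 0.174 to 0.60 for the extract against the regular diet. With the replicate number as a block, the numbers of members called were 0, 0 and 0, and the smallest adjusted p were 0.325, 0.703 and 0.174. That block left 201, 1 and 68 genes called over all genes, against 297, 1 and 98 without it, and 1 of 9 arrays correlated best with its own number in both other groups. It ended the call of Nlrp6 on the high-fat diet (adjusted p = 0.0757). Fitting only the 6 arrays compared ended the diet calls of Nlrp6 (adjusted p = 0.113), Nlrp12 (0.0741) and Ly96 (0.0606). Nlrp6 with extract against the regular diet passed under 4 alternatives, with adjusted p from 0.0226 to 0.0491.

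Over all genes, the counts were 597, 4 and 232 among the brighter genes and 15, 0 and 34 with only the 6 arrays compared. They were 58 to 452, 0 to 3 and 2 to 267 when single arrays were left out, and 0 for the extract against the high-fat diet after a shift to the same median.

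Of the members' values under alternatives, 444 kept their sign and 21 changed it, none past the threshold. Casp1 with extract against the regular diet was -0.0012 after a shift to the same median, and all other sign changes came from leaving out 1 array. The leave-one-out ranges were, for the high-fat against the regular diet, -0.029 to 0.072 for Cd14, -0.058 to 0.13 for Il1rn and -0.12 to 0.10 for Tlr4. For the extract against the high-fat diet they were -0.13 to 0.028 for Il1rn, -0.28 to 0.0066 for Nfkbia and -0.059 to 0.0064 for Tnf. For the extract against the regular diet they were -0.034 to 0.039 for Casp1, -0.10 to 0.084 for Il1rn, -0.053 to 0.17 for Il6, -0.12 to 0.093 for Nlrp3 and -0.040 to 0.18 for Tlr4. Nlrp6, which is no member, ran from -0.033 to 0.10 for the extract against the high-fat diet. The cause of these changes was not tested. Signal under the receptor gene mark limits what the arrays show for Tnf, Il6 and Nlrp3. Casp1 and Tlr4 were also near background, under 4.74 on all 9 arrays.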
